A study of Mus musculus with 12 samples.

Results

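The 10 genes described here encode the intermediate filament proteins that are neither keratins nor lamins and that are known from nerve, glia, muscle and mesenchyme, together with 1 filament-associated protein. They are Ina, Nes, Nefl, Nefm, Nefh, Prph, Gfap, Vim, Des and Sync, and all 10 were measured among 23102 genes. The set was chosen by the KHR minus KR differences of Ina and Nes in these same arrays, which were already known to be large, so those of Ina and Nes are given as values with no test. The other 8 genes entered by family membership and not by their own values, although the results of the study as a whole were known when they were listed. The question put to them is whether Ina and Nes differ alone or together with other neural, muscle and mesenchymal filaments.

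The data are Affymetrix Mouse Gene 2.0 ST arrays, read at exon level, of total RNA from 12 oral tumours, 1 array per tumour. KHR tumours (n = 6) came from mice whose labels give RAS with a transgene written iHPV, and a further label names human papillomavirus (HPV) E6. KR tumours (n = 6) came from mice whose labels give RAS alone. All the animals were C57BL/6 x FVB F1 mice that had received tamoxifen by intraperitoneal injection, and no normal tissue or tumour without tamoxifen is among the samples analysed here. The sources used here do not give the promoter that drives each transgene, the RAS allele, the other viral genes carried, or the age, sex and litter of the mice. Since no label ties each tumour to a mouse of its own, the p-values cover only the spread between these samples, part of which may be technical.

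The median log2 intensity of an array was 5.62 at the lowest and 5.75 at the highest. The mean of 13 squamous epithelial markers was 10.82 to 11.31 in KHR tumours and 10.90 to 11.31 in KR tumours, and Krt5, the basal keratin, was at 13.04 to 13.38 in KHR tumours and 13.04 to 13.32 in KR tumours. The 25 skeletal muscle fibre genes averaged 6.46 ± 0.88 in KHR tumours and 5.91 ± 0.51 in KR tumours (SD, n = 6 each). The highest of these means was 7.74, in KHR 5. Xist, the RNA that coats the silenced X chromosome of females, ranged from 3.87 to 12.43 in KHR tumours and from 3.81 to 12.45 in KR tumours, and was high on 4 KHR arrays and 2 KR arrays, which makes the share of female animals unequal. The number of arrays limits the precision of every value, and the file holds no call of whether a probeset was above background.

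Intermediate filaments are rope-like polymers built from coiled-coil proteins, and the protein used depends on the cell type. Epithelia use keratins, mesenchymal cells use vimentin, muscle uses desmin, astrocytes use glial fibrillary acidic protein, and nerve cells use the neurofilament subunits, alpha-internexin and peripherin. Nestin co-assembles with vimentin or desmin and is known from neural progenitors, developing muscle and newly forming vessels. The tumours measured here are of squamous epithelium, whose own filaments are keratins.

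The stretches of DNA just upstream of Ina and Nes are shown first, because these are the pair of genes on which the set turns. Of the 10 genes, 7 had an entry among the RefSeq promoter windows of the assembly GRCm38.p6. The 250 bases before the annotated start follow, 5′ to 3′ on the strand of the gene, in lower case, with every match to a motif searched in capitals. Ina lies at chr19:47014431-47014680 on the plus strand and Nes at chr3:87970843-87971092 on the plus strand.
Ina: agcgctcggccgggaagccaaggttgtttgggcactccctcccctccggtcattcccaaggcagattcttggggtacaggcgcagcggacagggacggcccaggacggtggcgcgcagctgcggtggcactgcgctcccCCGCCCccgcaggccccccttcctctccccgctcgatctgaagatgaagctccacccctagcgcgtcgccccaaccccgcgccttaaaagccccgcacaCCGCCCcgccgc
Nes: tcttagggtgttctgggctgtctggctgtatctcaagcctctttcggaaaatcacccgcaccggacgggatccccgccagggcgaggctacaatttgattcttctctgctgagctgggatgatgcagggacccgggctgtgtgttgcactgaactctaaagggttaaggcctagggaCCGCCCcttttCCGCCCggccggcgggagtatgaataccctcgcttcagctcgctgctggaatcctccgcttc
The motifs searched, on both strands, were the GC box GGGCGG, the CCAAT box, the TATA box TATAAA, the E-box CACGTG and the E2F sequences TTTCCCGC and TTTGGCGC. Each window held 2 GC boxes, read on the opposite strand as CCGCCC, and none of the other 5 motifs, and no matches overlapped. A GC box was found in 32.7% of 32851 promoter windows of the same length, a CCAAT box in 33.8%, a TATA box in 12.4%, CACGTG in 6.02%, TTTCCCGC in 0.895% and TTTGGCGC in 0.417%. The Ina window had 25 CpG dinucleotides and 70.8% G and C, and the Nes window had 15 CpG and 58.8%, against medians of 6 CpG and 52.4% over all windows. Among the other members with a window, Des held 2 GC boxes, Sync 3 and Prph 1, and Gfap and Vim held none. Sync had 19 CpG and 70.8% G and C, Des 10 and 67.2%, and Prph 7 and 65.2%. Vim had 8 CpG and 58.4%, and Gfap 2 and 55.6%. A match here describes the letters only.

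Among the 8 genes other than Ina and Nes, 1 rose in limma (Nefl, a neurofilament gene), none fell and 7 did not pass, where 3.74% of all genes passed, 2.71% higher and 1.03% lower. A single call among 8 genes gives no share to set against that background. The median difference of the 8 genes was 0.13 on the log2 scale and that of all genes 0.0045. Above 0 were 6 of the 8, and 11783 of all 23102 genes.

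**Figure D1:**
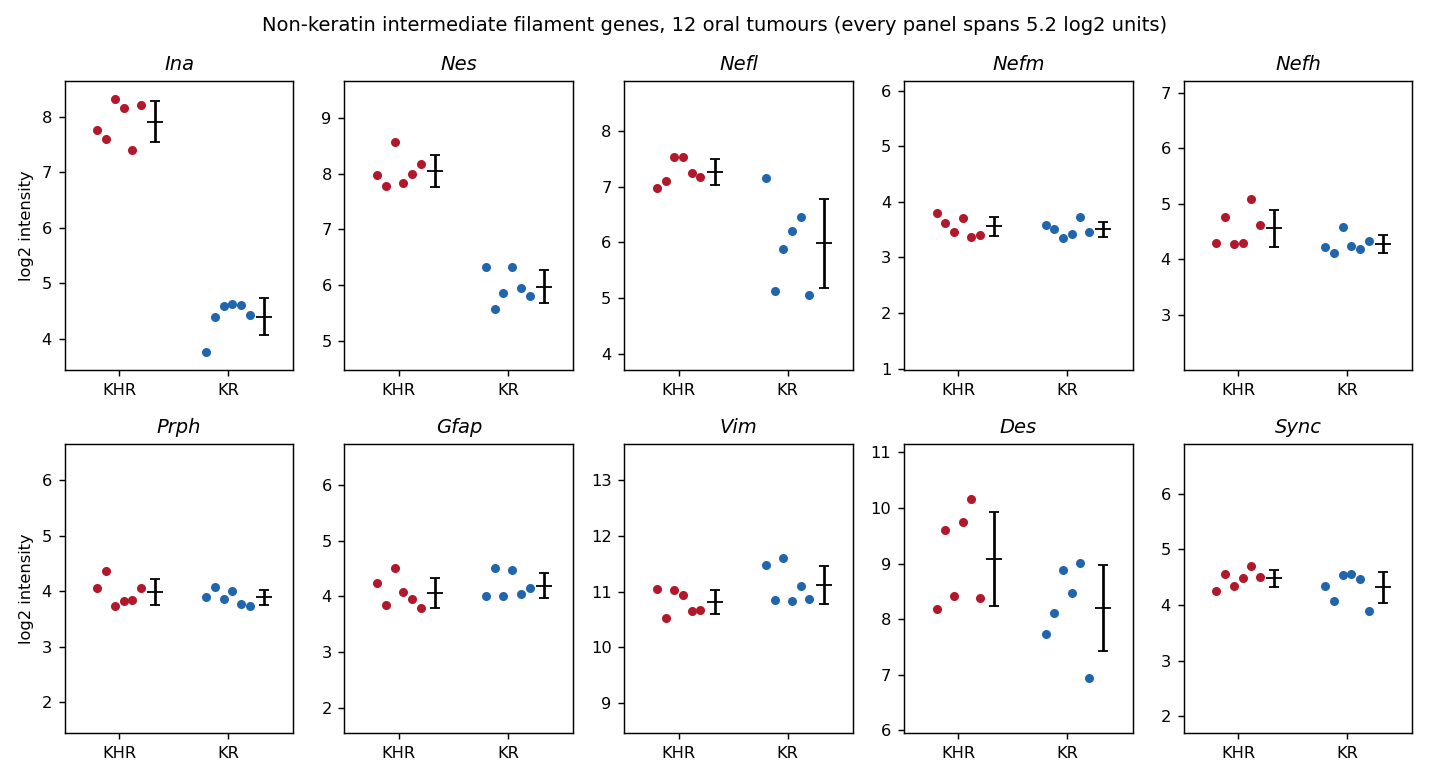
Log2 intensity of each of the 10 genes (y axis) in KHR and KR tumours (x axis), 1 point per array, with the mean and SD of 6 arrays beside the points; each panel spans the same number of log2 units. The KHR points of Ina (7.41 to 8.32) and Nes (7.78 to 8.56) lie above every KR point, and the groups of the other 8 genes overlap.

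Ina encodes alpha-internexin, a neurofilament protein made early in nerve cell development. Its level was 7.41 at the lowest, 7.96 at the median and 8.32 at the highest in KHR tumours, against 3.76, 4.51 and 4.64 in KR tumours. All KHR arrays lay above all KR arrays. Over all genes 2.67% had groups that did not overlap, 1.83% with KHR above and 0.84% with KHR below. The group means were 7.91 ± 0.37 in KHR tumours and 4.41 ± 0.33 in KR tumours (SD, n = 6 each), a difference of 3.50 ± 0.18 (SE) on the log2 scale, or 11.3-fold with a 95% interval of 8.61 to 14.9. Ranked by difference, Ina was number 2 of 23102 genes. All 5 of its probesets were higher in KHR tumours without overlap, by 1.44 to 3.83. Because the probesets differ so much, the mean over probesets gave 2.72 and median polish 2.85, and the SE does not cover the uncertainty in its size. With no call of detection, the KR level may be near background, in which case the fold is understated.

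Nes encodes nestin. It stood at 7.78, 7.99 and 8.56 (lowest, median and highest) in KHR tumours, against 5.57, 5.90 and 6.32 in KR tumours, again with no overlap between the groups. The means were 8.05 ± 0.29 in KHR tumours and 5.97 ± 0.30 in KR tumours (SD, n = 6 each), a difference of 2.09 ± 0.16 (SE), or 4.24-fold with a 95% interval of 3.36 to 5.37. It was number 14 of all genes by difference. All 8 probesets were higher on average in KHR tumours, by 0.53 to 2.84, and 6 of them without overlap. The summary of probesets mattered little here, with 1.94 for the mean and 2.00 for median polish. Whether more cells hold these transcripts or each cell holds more cannot be told apart in RNA from whole tumours.

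Of the 3 neurofilament triplet genes, Nefl alone passed, and Nefm and Nefh stood at low levels. Nefl encodes the light subunit, the core on which neurofilaments are built. It stood at 6.97, 7.21 and 7.54 in KHR tumours and at 5.06, 6.04 and 7.16 in KR tumours (lowest, median and highest). The KHR arrays were close together and the KR arrays widely spread, and KR 1, at 7.16, lay inside the KHR range. Nefl rose by 1.28 ± 0.30 (SE; limma, adjusted p = 0.0294), or 2.43-fold with a 95% interval of 1.56 to 3.79, with means of 7.26 ± 0.23 in KHR tumours and 5.98 ± 0.81 in KR tumours (SD, n = 6 each). All 7 of its probesets were higher on average in KHR tumours, by 0.81 to 1.61, and 3 of them without overlap. The call is close to the threshold: it was gone in fits without any 1 of 7 arrays (KHR 3, KHR 4, KHR 5, KHR 6, KR 2, KR 3 or KR 6; adjusted p up to 0.0707) and passed without any of the other 5, and it was lost with the Xist level (adjusted p = 0.0543) or the muscle mean (adjusted p = 0.0685) as a covariate, while its size stayed between 1.10 and 1.52 in those 12 fits.

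Nefm, the medium subunit, lies beside Nefl in the genome, with 1 RefSeq gene between them. It stood at 3.36, 3.53 and 3.80 in KHR tumours and at 3.34, 3.48 and 3.73 in KR tumours (lowest, median and highest). The groups covered nearly the same range, and the difference was 0.05 ± 0.10 (SE; limma, adjusted p = 0.880), with a 95% interval of -0.16 to 0.27. The mean over probesets and median polish gave -0.03 for this gene. Of its 8 probesets, 3 were higher and 5 lower on average in KHR tumours, none without overlap. By level Nefm was at percentile 1.15 of all genes. With no call of detection, its flat values cannot show whether the transcript changed.

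Nefh, the heavy subunit, stood at 4.27, 4.46 and 5.09 in KHR tumours and at 4.12, 4.23 and 4.58 in KR tumours (lowest, median and highest). Of the KHR arrays, 3 lay above every KR array, and the difference of 0.28 ± 0.14 (SE; limma, adjusted p = 0.378) did not pass. Prph encodes peripherin, the filament of peripheral neurons. Its KHR arrays ran from 3.73 to 4.37 and its KR arrays from 3.73 to 4.08, a difference of 0.09 ± 0.11 (SE; adjusted p = 0.780; -0.02 when probesets were averaged and -0.05 under median polish). All KR arrays of Prph lay inside the KHR range.

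**Figure D2:**
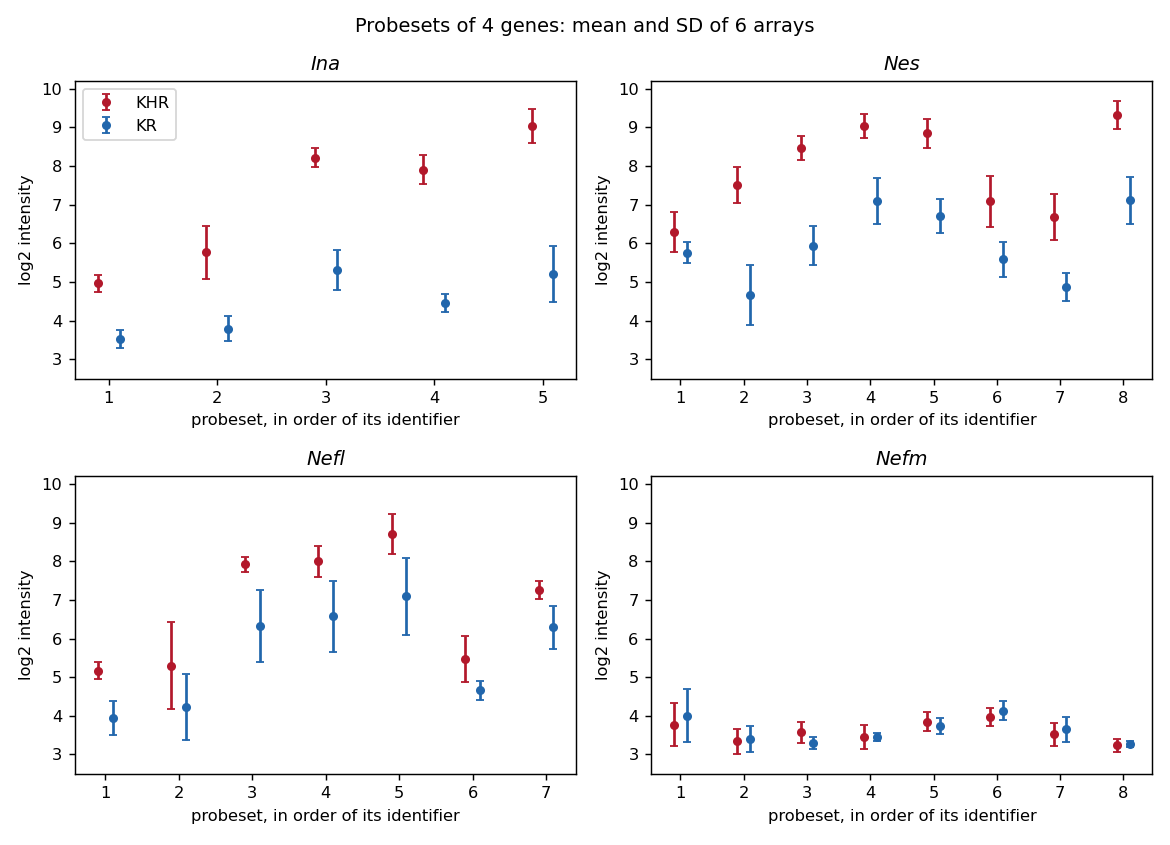
Mean log2 intensity and SD over 6 arrays (y axis) of each probeset (x axis, in order of identifier, which need not be the order along the gene) for Ina, Nes, Nefl and Nefm in KHR and KR tumours. Every probeset of Ina, Nes and Nefl has the higher mean in KHR tumours (lowest differences 1.44, 0.53 and 0.81), whereas those of Nefm differ by -0.24 to 0.27.

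Gfap, the filament of astrocytes and non-myelinating Schwann cells, stood at 3.78, 4.01 and 4.50 in KHR tumours and at 4.00, 4.09 and 4.50 in KR tumours (lowest, median and highest). All KR arrays lay inside the KHR range, and the difference was -0.13 ± 0.14 (SE; limma, adjusted p = 0.739). By level Gfap was at percentile 29.5 of all genes, Prph at 18.3, Nefh at 39.9 and Sync, described below, at 39.2. With no call of detection, the values of these 4 genes cannot show that the transcripts were unchanged.

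The muscle filament Des varied more between tumours than between groups. Desmin links the contractile units of muscle fibres. Des stood at 8.19, 9.01 and 10.16 in KHR tumours and at 6.95, 8.29 and 9.0 in KR tumours (lowest, median and highest). KHR 2, KHR 4 and KHR 5 lay above every KR array and the other 3 KHR arrays lay among them. The difference of 0.89 ± 0.40 (SE; limma, adjusted p = 0.299) did not pass, and its 95% interval ran from 0.02 to 1.76. With the mean of the 25 muscle fibre genes as a covariate the difference was 0.35 ± 0.24 (adjusted p = 0.570). That was the lowest of 23 limma refits, whose differences ran up to 1.07, and none of them passed. The lowest adjusted p, 0.0844, came with the replicate number as a block (0.89 ± 0.24).

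Within the KHR group Des followed the muscle fibre genes closely. Over the 6 KHR arrays Pearson's r was 0.95 (two-sided exact permutation p = 0.00139, which is the lowest possible with 6 arrays; adjusted p = 0.0111 over the 8 relations computed) and Spearman's rho was 1 (exact permutation p = 0.00278, adjusted p = 0.0222), with r of 0.96 without the 2 arrays farthest from the median of the muscle mean. Over the 6 KR arrays r was 0.76 (exact permutation p = 0.0833, adjusted p = 0.222) and rho 0.77 (exact permutation p = 0.103, adjusted p = 0.274), with r of 0.74 without the 2 farthest arrays. Sync encodes syncoilin, which binds desmin and the dystrophin complex in muscle. Its arrays ran from 4.25 to 4.70 in KHR tumours and from 3.90 to 4.56 in KR tumours, a difference of 0.16 ± 0.13 (SE; limma, adjusted p = 0.606).

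Vim, the mesenchymal filament gene, was no higher in KHR tumours. It stood at 10.52, 10.81 and 11.04 in KHR tumours and at 10.83, 10.99 and 11.60 in KR tumours (lowest, median and highest). No KHR array lay above the highest KR array, and 3 KR arrays lay inside the KHR range. The difference was -0.31 ± 0.15 (SE; limma, adjusted p = 0.351), with a 95% interval of -0.64 to 0.02. Of its 14 probesets, 13 were lower on average in KHR tumours, none without overlap. The mean over probesets gave a smaller difference, -0.16 (adjusted p = 0.477).

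Vim and the mean of 14 fibroblast genes had r of -0.27 over the 6 KHR arrays (exact permutation p = 0.699, adjusted p = 0.798; rho -0.54, exact permutation p = 0.297, adjusted p = 0.476; r of -0.60 without the 2 farthest arrays). Over the 6 KR arrays r was 0.78 (exact permutation p = 0.0306, adjusted p = 0.122; rho 0.77, exact permutation p = 0.103, adjusted p = 0.274; r of 0.53 without the 2 farthest arrays). None of these passed after adjustment, and the KHR value changed sign with the summary of probesets (0.13 with the mean, 0.16 with median polish).

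**Figure D3:**
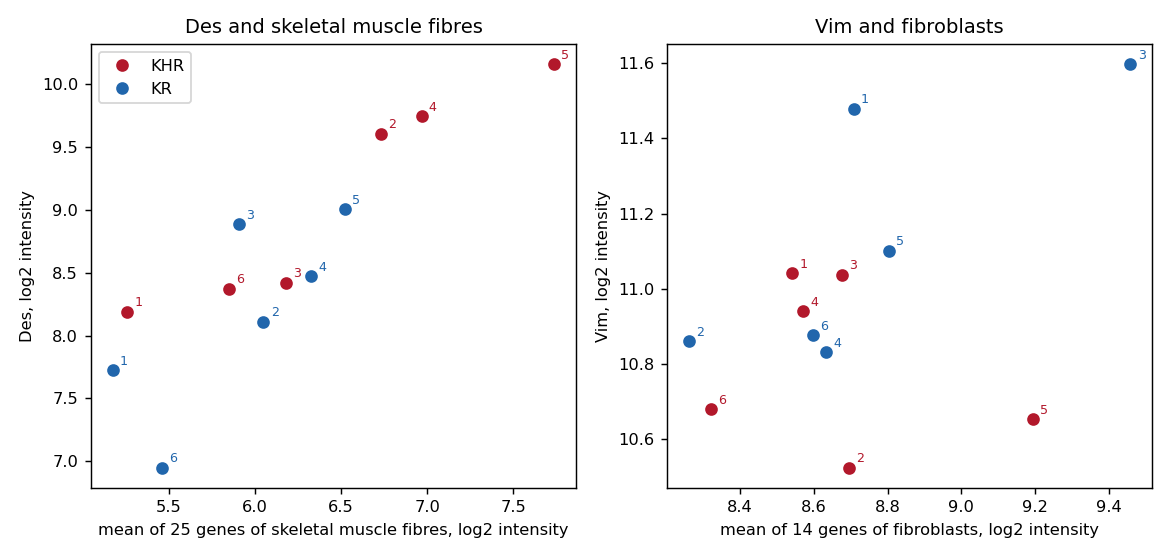
Log2 intensity of Des (left, y axis) against the mean of 25 genes of skeletal muscle fibres and of Vim (right, y axis) against the mean of 14 fibroblast genes (x axes), 1 point per array, numbered by replicate. The KHR points of Des rise with the muscle mean in the same order throughout, with KHR 5 at the top (muscle mean 7.74, Des 10.16), while the highest Vim levels are those of KR 3 (11.60) and KR 1 (11.48).

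How closely Ina and Nes followed each other from tumour to tumour inside a group depended on the summary of probesets and on single arrays. Over the KHR arrays r was 0.60 (exact permutation p = 0.201, adjusted p = 0.403) and rho 0.60 (exact permutation p = 0.242, adjusted p = 0.476), with r of 0.10 without the 2 farthest arrays. KHR 3 was highest for both genes, at 8.32 for Ina and 8.56 for Nes. With median polish the KHR r was 0.92 and passed (exact permutation p = 0.00833, adjusted p = 0.0333). Over the KR arrays r was -0.34 (exact permutation p = 0.586, adjusted p = 0.781) and rho 0.43 (exact permutation p = 0.419, adjusted p = 0.559), with r of 0.86 without the 2 farthest arrays, so the negative value rests on those.

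Nes is also known from the endothelium of growing vessels, so it was set against the mean of 15 endothelial genes. That mean was 6.54 to 6.81 in KHR tumours and 6.38 to 7.04 in KR tumours, and none of the 15 genes passed. Over the KHR arrays r with Nes was 0.40 (exact permutation p = 0.435, adjusted p = 0.696; rho 0.09, exact permutation p = 0.919, adjusted p = 0.919; r of -0.09 without the 2 farthest arrays). Over the KR arrays it was 0.11 (exact permutation p = 0.850, adjusted p = 0.850; rho 0.31, exact permutation p = 0.564, adjusted p = 0.644; r of 0.81 without the 2 farthest arrays). Flt1 and Kdr, both receptors of the vascular growth factor VEGF, differed by 0.82 ± 0.27 and 0.28 ± 0.15 (SE; limma, adjusted p = 0.118 and 0.385).

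A list of 3 further filament genes outside the keratins and lamins was read beside the 10. Bfsp1 encodes filensin, a subunit of the beaded filament of the eye lens. It stood at 7.07, 7.26 and 7.43 in KHR tumours, all above the 5.77, 6.52 and 6.71 of KR tumours (lowest, median and highest), and rose by 0.88 ± 0.15 (SE; limma, adjusted p = 0.00401). That call held in all 23 limma refits tried, with differences from 0.76 to 0.95. In the exact rank permutation test its unadjusted p was 0.00216, which is the lowest possible with 6 arrays against 6. After adjustment that p became 0.0810, so no gene could pass the rank test and it cannot weigh this call. Bfsp2, which encodes phakinin, the partner of filensin in the lens, differed by -0.13 ± 0.14 (adjusted p = 0.728). Synm, which encodes synemin, a partner of desmin and vimentin, differed by -0.27 ± 0.17 (adjusted p = 0.487).

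**Figure D4:**
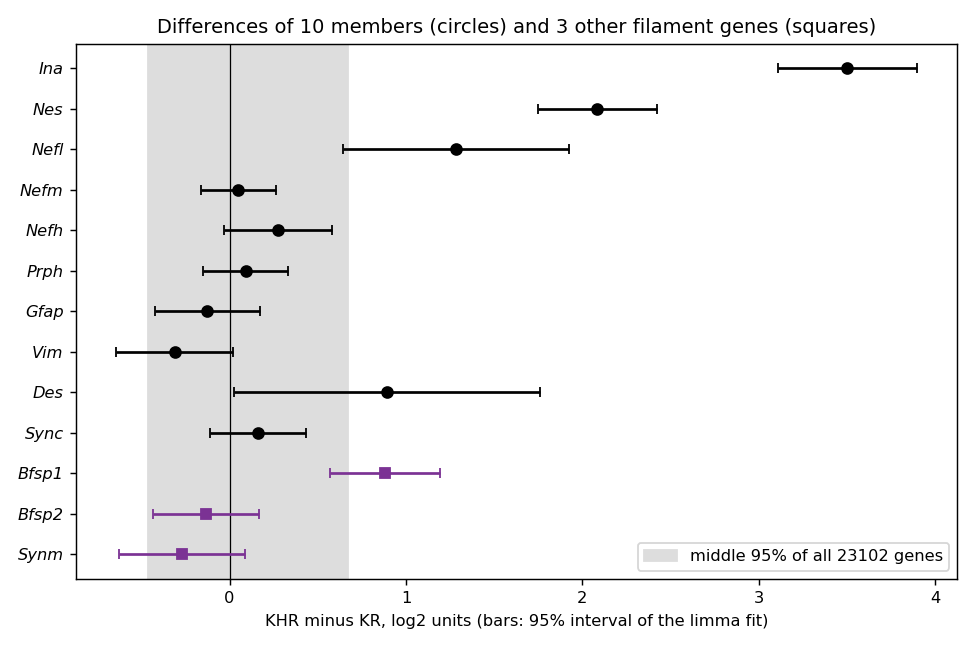
Difference KHR minus KR in log2 units (x axis) for the 10 genes (circles) and for Bfsp1, Bfsp2 and Synm (squares), with 95% intervals from the limma fit; the grey band holds the middle 95% of all genes, from -0.46 to 0.67. Ina (3.50), Nes (2.09), Nefl (1.28), Des (0.89) and Bfsp1 (0.88) lie to the right of the band, the interval of Des reaching down to 0.02.

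The wider gene set of nerve cells held no call. Of 21 genes of neurons and neuroendocrine cells, none passed in either direction, and their median difference was -0.06. Their mean was 4.78 to 4.87 in KHR tumours and 4.80 to 4.90 in KR tumours, below the median level of all genes, 4.98. At these levels, and with 3.74% of all genes passing, the lack of a call does not show that nerve cell genes were unchanged. The pair with the smallest p were Scg2, a granule protein of neuroendocrine cells, at -0.29 ± 0.16, and Stx1a, a protein of synaptic vesicle fusion, at -0.24 ± 0.12 (SE; limma, adjusted p = 0.421 and 0.346). Tubb3, the neuronal tubulin, and Stmn2, a neuronal growth protein, are members that differed by -0.22 and 0.12, named here after their values were seen.

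The sets of genes that follow held 0 or 1 call each, which gives no share to set against the 3.74% of all genes that passed. Of 14 neural progenitor genes, none rose and 1 fell, with a median difference of 0.03 and means of 4.69 to 4.93 in KHR tumours and 4.66 to 4.85 in KR tumours. The gene that fell was Sox2, a transcription factor of neural and also of basal oral epithelial cells, by 1.25 ± 0.30 on the log2 scale (SE; limma, adjusted p = 0.0333), a call lost without KHR 5, KR 1, KR 5 or KR 6 (adjusted p up to 0.0751) and with the muscle covariate (adjusted p = 0.0656). Msi1, the RNA-binding protein Musashi of neural and epithelial progenitors, differed by 0.96 ± 0.27 (adjusted p = 0.0693) and was spread in KHR tumours, from 4.49 to 6.42, against 4.28 to 4.62 in KR tumours.

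Of 13 Schwann cell and astrocyte genes, 1 rose and none fell, with a median difference of -0.01 and means of 5.06 to 5.30 in KHR tumours and 5.00 to 5.24 in KR tumours. That gene was Egr2, a factor of myelinating Schwann cells that is also an immediate early gene of many growth-stimulated cells, and it rose by 1.87 ± 0.37 (SE; limma, adjusted p = 0.0121). Slc1a3, a glutamate transporter of glia, differed by -0.77 ± 0.24 (adjusted p = 0.0991). Sox10, the defining factor of Schwann cells, differed by 0.06 ± 0.08 (SE; limma, adjusted p = 0.784) and is named here after its value was seen. It was at percentile 10.5 of all genes by level, so its lack of a call does not show that it was unchanged.

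No gene passed among the 25 of skeletal muscle fibres or the 8 of muscle progenitors, in which Nes is known to be used. The muscle fibre genes had a median difference of 0.58, with 23 of 25 above 0, and the muscle progenitor genes a median of 0.08. Over all genes 11783 of 23102 were above 0. The fibre genes were read on the same tumours, so they are not separate observations. Ryr1 and Myom2, a calcium channel and a structural protein of fibres, differed by 0.98 ± 0.33 and 0.90 ± 0.34 (SE; limma, adjusted p = 0.135 and 0.188), and the progenitor genes Myf6 and Mymk by 0.69 ± 0.38 and 0.26 ± 0.15 (adjusted p = 0.424 and 0.427). The differences of Ina and Nes were 3.51 ± 0.21 and 2.14 ± 0.17 (SE) with the muscle fibre mean as a covariate. Without it they were 3.50 ± 0.18 and 2.09 ± 0.16 (SE). That covariate holds no muscle progenitor gene, and whether muscle cells have a part in these differences was not tested.

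Among mesenchymal cells and leukocytes, where Vim is made, 1 gene fell. Of 14 fibroblast genes none rose and 1 fell, Col1a2, a chain of type I collagen, by 0.80 ± 0.18 on the log2 scale (SE; limma, adjusted p = 0.0220); the call was lost without KHR 4 or KHR 6 (adjusted p = 0.0578 and 0.0525), and with median polish (adjusted p = 0.0514), the Xist covariate (0.0581) or the muscle covariate (0.0656). Col1a1, the other chain, differed by -0.63 ± 0.18 (adjusted p = 0.0743). None of 10 genes of epithelial-mesenchymal transition passed, with a median of 0.11, and Snai2 and Prrx1, transcription factors of that program, differed by 0.34 ± 0.15 and 0.23 ± 0.15 (adjusted p = 0.274 and 0.500). None of 13 genes of smooth muscle and pericytes passed (median 0.21; Cnn1 0.35 ± 0.15, adjusted p = 0.278; Acta2 -0.31 ± 0.15, adjusted p = 0.322). None of 12 leukocyte genes passed (median 0.21; Cd68 0.53 ± 0.21, adjusted p = 0.235; Cd79a 0.19 ± 0.09, adjusted p = 0.306).

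The list of genes that anchor or turn over filaments, in which Iffo1 and Iffo2 were also placed, showed no call. Iffo1 and Iffo2 differed by -0.20 ± 0.12 and -0.45 ± 0.20 (SE, limma, adjusted p = 0.487 and 0.289). Of the 8 genes measured in this list, none passed, 1 had a difference above 0 and the median was -0.23. Over all genes 11783 of 23102 had a difference above 0. Plec, the linker plectin, differed by -0.27 ± 0.11, and Hspb1, a small heat shock protein that binds filaments, by -0.68 ± 0.25 (SE; limma, adjusted p = 0.232 and 0.169). Of the 13 squamous epithelial genes none rose and 1 fell, Krt13, the keratin of oral suprabasal layers, by 1.26 ± 0.22 on the log2 scale (adjusted p = 0.00571), and Epcam, an epithelial adhesion protein, differed by 0.88 ± 0.24 (adjusted p = 0.0670).

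REST is the repressor that keeps many nerve cell genes silent outside the nervous system, together with co-repressors and histone-modifying enzymes. Of 14 genes of this complex none rose and 1 fell, with a median difference of -0.01. Rest itself differed by 0.27 ± 0.16 (SE; limma, adjusted p = 0.485) and is named here after its value was seen. Ctdsp1, a phosphatase that works with REST, was the gene that fell, by 0.44 ± 0.11 on the log2 scale (adjusted p = 0.0486), and the call did not survive most refits: it was gone in fits without any 1 of 10 arrays, and its change with the mean over probesets was -0.17 (adjusted p = 0.338). Ehmt2, a histone methyltransferase, differed by -0.31 ± 0.10 (adjusted p = 0.141).

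**Figure D5:**
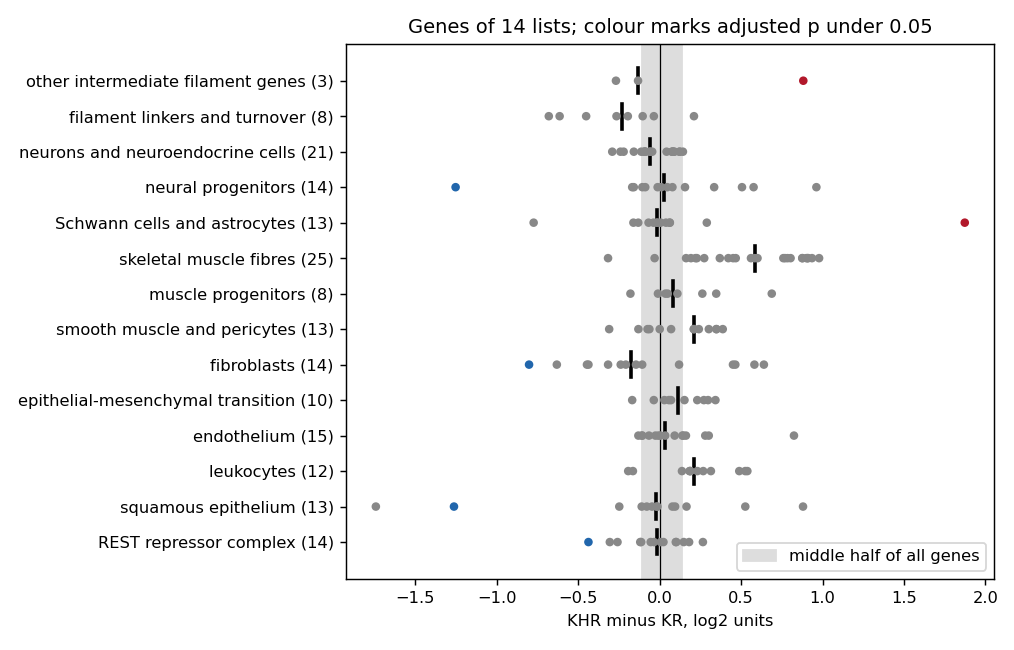
Difference KHR minus KR in log2 units (x axis) of every measured gene of 14 gene lists (rows, with the number of genes), the black bar marking the median of each list and the grey band the range between the quartiles of all genes. Red points passed higher (Bfsp1, Egr2), blue points passed lower (Sox2, Col1a2, Krt13, Ctdsp1) and grey points did not pass; the muscle fibre list, with a median of 0.58, lies farthest to the right.

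The chromosomal neighbours of Ina and Nes were read as the 3 nearest measured genes on each side in RefSeq order. Next to Ina, 1 of 6 passed: Nt5c2, a nucleotidase gene, rose by 0.63 ± 0.15 (SE; limma, adjusted p = 0.0278). The call of Nt5c2 was gone in fits without any 1 of 7 arrays (KHR 3, KHR 4, KHR 5, KHR 6, KR 1, KR 2 or KR 5; adjusted p up to 0.0693) and with the muscle covariate (adjusted p = 0.0807). On the other side Pcgf6, a Polycomb group gene, Taf5, of the general transcription machinery, and Atp5md, of the mitochondrial ATP synthase, differed by 0.44 ± 0.17, 0.39 ± 0.12 and 0.28 ± 0.11 (adjusted p = 0.218, 0.0859 and 0.199), and beyond Nt5c2, Cnnm2 and As3mt differed by 0.14 ± 0.15 and -0.09 ± 0.09 (adjusted p = 0.728 and 0.730). Next to Nes none of 6 passed. Crabp2, a retinoic acid-binding protein, and Bcan, the brain proteoglycan brevican, which flank it, differed by 0.00 ± 0.14 and -0.01 ± 0.11 (adjusted p = 0.998 and 0.976). Rrnad1, Isg20l2, Hapln2 and Gm19439 differed by 0.15, 0.07, -0.07 and -0.37 (lowest adjusted p 0.0931, for Gm19439).

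The genes whose tumour-to-tumour pattern inside the groups was most like that of a member were found by Pearson's r of deviations from the group means over 12 arrays, among 10641 genes, as a description. The genes compared had a mean level above the median of all genes and at least 3 probesets, with the members left out. All points share the same 12 tumours and arrays. For Ina these were Cdc42bpb (r = 0.96), P4ha1 (0.94), Vps37b (0.92) and Zyg11b (0.91), and for Nes Galnt10 (0.93), Zfp275 (0.88), Ociad2 (0.87) and Ddt (0.85). Like Ina, each of its 4 genes had its lowest KR value on KR 1, and r without that array was not computed. For Vim they were Sox4 (0.91), Atxn2l (0.90), Kdelr3 (0.90) and Mfap2 (0.89). For Des all 4 are known from striated muscle: Ankrd23 (0.95), Flnc (0.94), Hspb7 (0.90) and Myl1 (0.90). Of these 16 genes Zfp275 alone passed between the groups, rising by 0.53 ± 0.13 (SE; limma, adjusted p = 0.0335), and 13 of its 23 refits lost that call, those without any 1 of 7 arrays among them, with 0.25 for the mean over probesets and 0.19 for median polish (adjusted p = 0.145 and 0.357).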

How the data were processed

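The deposited file holds log2 intensities for 269751 probesets on 12 arrays. The authors used Partek, per the submitters' processing notes. Its version, the background correction, any normalization and the genome build: not given in the sources used here. That the logarithm has base 2 was read from the range of the values. Gene names came from GEO's platform annotation, with older symbols updated through the RefSeq table of GRCm38.p6: 233753 probesets had 1 symbol, 5106 several and 30892 none, and 2247 symbols were updated. A gene's value is the median of its probesets with 1 symbol; 1 probeset each of Nefm, Des and Sync also carries another symbol and was left out. No filter on dim genes was set.

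The test was limma's two-sided moderated test (version 3.58.1 in R 4.3.3; lmFit, eBayes) over all 12 arrays without covariates, with p-values adjusted by the Benjamini-Hochberg method over 23102 genes and a threshold of 0.05. The fit was tested on simulated data. Differences are KHR minus KR, and intervals are 95% intervals of that fit. Correlations used exact permutation tests in numpy 2.4.6 and scipy 1.17.1; figures used matplotlib 3.10.9 and pandas 2.3.3 in Python 3.11.15. The members, the 14 gene lists, the rule for named genes (all members; the 2 smallest p of each list; all other filament genes; 3 neighbours on each side of Ina and of Nes; the 4 genes most like Ina, Nes, Vim and Des) and the alternatives (summary of probesets, normalization, filters, eBayes options, array weights, covariates, replicate block, rank test and leaving out each array) were chosen with earlier results of these data known. Nefl, Nefm and Nefh had no promoter entry.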

Additional observations from a re-analysis of the deposited data

Results flagged for a closer look

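The level of Ina in KR 1 was 3.76, against 4.39 to 4.64 on the other 5 KR arrays. It was flagged because the gap to the nearest array was 0.719 of the whole range of the group, above the 95% critical value of Dixon's test for 6 samples. Both groups of all 10 genes were examined, 20 groups in all, with 1 flag, and chance flags about 1 in 20. Without KR 1 the difference of Ina was 3.37.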

How the results depend on the processing

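Over all genes 863 passed. The mean over probesets gave 1445, the Xist level as a covariate 555, and leaving out 1 array gave 523 to 1085, with 523 without KHR 4 and 531 without KR 2. The exact rank permutation test, which can give no p below 0.0021645, gave 0 after adjustment and 3051 at an unadjusted p under 0.05. Its lowest p became 0.0810 after adjustment, so its adjusted counts are no check on the calls. Among the 8 genes other than Ina and Nes, 1 passed, Nefl, and 0 passed with the Xist covariate, with the muscle covariate or with the exact rank permutation test (1 at an unadjusted p under 0.05, Nefl, p = 0.00866); leaving out 1 array gave 0 to 1. With the replicate number as a block 925 genes passed, Nefl among them (adjusted p = 0.0353). Des kept its difference of 0.89 under the block, with an SE of 0.24, and did not pass (adjusted p = 0.0844). Deviations of same-numbered arrays correlated above 0.1 in 2 of 6 pairs, at most 0.23, and 3 of 12 arrays correlated best with their own number. These counts cannot tell whether same-numbered arrays shared more than a number. Of the genes named as having passed, Sox2 (adjusted p = 0.0859) and Ctdsp1 (adjusted p = 0.101) lost their call under the block. Quantile normalization called 64.3% of its genes higher, close to the 64.4% with array medians subtracted, and 72.4% were higher with neither, a shift in split that left Ina, Nes and Nefl within 0.05 of their values. Nefm was -0.0297 when its probesets were averaged and -0.0315 under median polish, and Prph was -0.0157 and -0.0476. Among the correlations within groups, Ina with Nes passed in KHR tumours with median polish (r = 0.92) and was 0.16 in KR tumours; Nes with endothelium in KR tumours was -0.0801 with the mean and -0.218 with median polish; Vim with fibroblasts in KHR tumours was 0.13 and 0.16. The cause of these shifts was not tested. The filter on dim genes dropped Nefm, Nefh, Prph, Gfap and Sync. Alternatives for Bfsp1, Synm, Bfsp2, Col1a2, Egr2, Sox2, Krt13, Ctdsp1, Nt5c2 and Zfp275 were added after their values were seen.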

Other observations

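The neighbours of Nefl were read in the same way as those of Ina and Nes, a choice made after its values were seen. None of the 3 nearest measured genes on each side passed, Nefm being 1 of them. Dock5, on the other side from Nefm, differed by 0.35 ± 0.11 (SE; limma, adjusted p = 0.118), with 5 of 6 KHR arrays above every KR array. Gnrh1 and Kctd9 differed by -0.15 and 0.12, and A230070E04Rik and Adam7 by -0.01 and -0.04.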
